A study of Mus musculus with 12 samples.

Results

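The genes described here encode the proteins of the mitochondrial ribosome, in mouse hearts with or without a knock-in allele of Lemd2. They were taken as the protein-coding entries of the gene table whose symbol begins with Mrpl or Mrps followed by a number. This gave 78 genes of 39331 entries, 49 with the large subunit letter (Mrpl) and 29 with the small subunit letter (Mrps), spread over 17 chromosomes. The KI group held 6 libraries from hearts of C57BL/6N mice with the Lemd2 p.L13R knock-in, and the WT group held 6 libraries from hearts of C57BL/6N mice with the wild-type gene. All animals were 9 months old and had no treatment. Lemd2 encodes a protein of the inner nuclear membrane, and the allele replaces a leucine by an arginine. Zygosity and sex are not in the labels used here. The titles of KI 1 and KI 2 join a pair of numbers with a plus sign. The sample names of KI 3, KI 4 and KI 5 carry an age tag, and those of KI 2 and KI 6 end in old and new. What these numbers and words stand for was not stated.

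The mitochondrial ribosome makes the proteins encoded by mitochondrial DNA, all of which belong to the respiratory chain and ATP synthase. Its ribosomal RNAs, the 12S and 16S RNAs, are transcribed from mitochondrial DNA (genes mt-Rnr1 and mt-Rnr2), whereas every one of its proteins is encoded in the nucleus and imported. Some of the proteins have relatives in bacterial ribosomes and others exist only in mitochondria. Heart muscle depends on this machinery heavily because its cells are packed with mitochondria, and human variants in several of these genes cause cardiomyopathy in childhood.

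Messenger RNA of these genes changed little between the groups. With library sizes scaled by TMM (edgeR's trimmed mean of M values, which sets the bulk of genes equal between libraries), 3 of 49 large subunit genes were lower in KI hearts, Mrpl39, Mrpl37 and Mrpl1, and 0 were higher. None of the 29 small subunit genes passed in either direction by edgeR's quasi-likelihood test at an adjusted p under 0.05, and 14 of the 78 genes (9 large, 5 small), 17.9%, had an unadjusted p under 0.05, fewer than the 25.8% of all genes tested. DESeq2 and limma's voom each called 1 small subunit gene lower, Mrps35, and 4 large subunit genes lower, the same 3 and Mrpl42, and voom called 1 large subunit gene, Mrpl33, higher. Over all 15602 genes tested, 4.34% passed as lower and 4.41% as higher, so that the large subunit's share lower, 6.12%, was close to that of all genes. The fold changes of the 78 genes, KI over WT, lay between -0.23 and 0.20 on the log2 scale. Both ribosomal RNAs of the mitochondrion were lower in KI hearts, at 0.557 and 0.574 times the WT level. Values below are counts per 1000000 (CPM), TMM-scaled unless stated otherwise, and errors of means are SD over n = 6 libraries a group.

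The regions just before the start sites of the lower genes are shown first, with that of Mrpl53, which was higher under other scalings, and the stretch between the head-to-head genes Mrpl46 and Mrps11. The sequences are RefSeq's for GRCm38.p6, 5′ to 3′ on the strand of the gene, each 250 bases ending just before the annotated start (41 bases for the pair, on the strand of Mrps11). Capitals mark matches, on either strand, to 6 short motifs of regulators that are known to act on nuclear genes of mitochondria or on promoters in general: GCATGCGC (NRF1), CCGGAAG (ETS factors such as GABPA), AAGATGG (YY1), GGGCGG (Sp factors), CCAAT (NFY) and TCAAGGTCA (ERR, estrogen-related receptors).
Mrpl39, chr16:84735245-84735494, minus strand: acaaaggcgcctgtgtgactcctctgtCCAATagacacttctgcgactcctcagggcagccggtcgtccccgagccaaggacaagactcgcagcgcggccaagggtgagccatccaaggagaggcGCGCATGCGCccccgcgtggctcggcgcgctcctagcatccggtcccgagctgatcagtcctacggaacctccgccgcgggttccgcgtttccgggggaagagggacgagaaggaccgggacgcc
Mrpl37, chr4:107066867-107067116, minus strand: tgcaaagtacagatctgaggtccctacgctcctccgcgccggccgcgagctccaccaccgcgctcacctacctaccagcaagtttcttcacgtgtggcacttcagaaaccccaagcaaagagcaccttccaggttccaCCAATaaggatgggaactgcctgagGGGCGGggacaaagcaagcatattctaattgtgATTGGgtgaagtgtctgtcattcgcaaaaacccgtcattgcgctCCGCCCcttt
Mrpl1, chr5:96209865-96210114, plus strand: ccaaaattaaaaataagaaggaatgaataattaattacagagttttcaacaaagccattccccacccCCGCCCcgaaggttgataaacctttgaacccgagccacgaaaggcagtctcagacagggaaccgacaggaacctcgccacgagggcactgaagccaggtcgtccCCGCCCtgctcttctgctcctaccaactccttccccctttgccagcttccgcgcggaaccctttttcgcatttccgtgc
Mrpl53, chr6:83108858-83109107, plus strand: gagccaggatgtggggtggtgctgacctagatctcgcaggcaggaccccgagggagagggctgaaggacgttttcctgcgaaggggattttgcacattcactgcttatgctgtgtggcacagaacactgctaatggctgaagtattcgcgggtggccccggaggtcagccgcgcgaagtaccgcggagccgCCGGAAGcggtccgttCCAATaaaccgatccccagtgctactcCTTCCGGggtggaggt
Mrpl46 to Mrps11, chr7:78783090-78783130, plus strand: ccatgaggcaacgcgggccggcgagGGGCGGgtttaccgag

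The capitals show a palindromic NRF1 match in Mrpl39, where the motif reads on both strands and its copies overlap, and a CCAAT match further upstream. The Mrpl37 region holds 2 CCAAT and 2 Sp matches, the Mrpl1 region 2 Sp matches, and the Mrpl53 region 2 ETS matches on opposite strands around a CCAAT match. For Mrpl39 and Mrpl1, the start used by RefSeq's promoter table lies inside the gene span of the deposited table, by 139 and 617 bases. A match describes the letters and is no evidence of binding.

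Over all windows from 250 bases before to 50 after the start, 69 of the 78 genes could be matched, with 75 windows. The ETS motif stood in 34.7% of these windows, against 15.3% of the windows of all genes tested and 8.86% of all windows in the table. NRF1 was in 10.7% of the members' windows, compared with 4.47% of those of genes tested and 2.71% of all windows, and YY1 in 17.3%, compared with 6.60% and 6.34%. Sp and CCAAT were at 52.0% and 40.0% in the members, near the 57.4% and 37.3% of genes tested. The ERR motif was in 0 of 75 windows, compared with 0.315% of those of genes tested and 0.423% of all windows. At shares this low, 75 windows are too few to show a lack of the motif. These shares hold for the exact letters above, either strand, and overlapping matches of one motif count once per window. In the 26 members with an ETS match the median log2 fold change was -0.00, and in the 43 without it -0.07, both within the range of single genes and given as a description.

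Many of these genes start back to back with a neighbour. A start on the opposite strand within 1000 bases, facing away, was found for 21 of 78 members (26.9%), compared with 6.77% of 21936 protein-coding genes. The latter include genes that did not pass the expression filter, and the share among tested genes was not computed. The closest pair was Mrpl54 with Apba3, 9 bases apart, and 18 of the 21 were under 300 bases apart. Several partners have mitochondrial roles of their own: Ndufs6, a subunit of respiratory complex I, lies 21 bases from Mrpl36, Ndufb5, another complex I subunit, 302 bases from Mrpl47, and Sars2, the mitochondrial seryl-tRNA synthetase, 136 bases from Mrps12. Mrpl46 and Mrps11, 42 bases apart, encode proteins of different subunits and had log2 fold changes of -0.06 (SE 0.06, adjusted p = 0.592, edgeR) and -0.13 (SE 0.06, adjusted p = 0.148, edgeR). Of the 20 partners tested, 0 passed the threshold of edgeR's test. Pairs that overlap at their starts were not counted. Mrpl43 (chr19:45005014-45006442, minus strand) and Twnk (from 45005663, plus strand) are such a pair. Twnk was lower in KI (-0.36, adjusted p = 0.0154, edgeR) and Mrpl43 did not pass (0.08, adjusted p = 0.532, edgeR). On chromosome 17, which holds Lemd2, lie 8 members, the nearest Mrpl28 at 1.07 Mb and Mrps34 at 2.29 Mb, and 0 of the 8 passed.

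Total counts were 27.9 to 42.9 M in KI libraries and 38.3 to 44.6 M in WT libraries (M is 1000000 counts), and each of the 78 genes had at least 11.2 CPM in every library. Counts on the mitochondrial chromosome made up 30.9% to 33.9% of KI libraries and 34.0% to 40.4% of WT libraries, which do not overlap. Lemd2 itself was at 21.3 ± 2.88 CPM in KI and 27.4 ± 1.97 CPM in WT hearts (log2 fold change -0.36, SE 0.09, adjusted p = 0.0213, edgeR), a call that was lost with library totals (-0.21, adjusted p = 0.161); counts per gene cannot show the base change. Ventricular cardiomyocyte markers were abundant in every library, with 2 of 8 lower in KI (Tnni3 and Pln) and a summed level of 41179 to 49654 CPM in KI and 45510 to 52243 CPM in WT. Fibroblast markers were higher in KI for 4 of 8 genes (Col1a1, Col1a2, Col3a1 and Postn), with sums of 981 to 1786 CPM in KI and 769 to 1006 CPM in WT. KI 6 stood apart in holding 6617 of the 6641 counts of the atrial gene Myl7 in the KI group, and 311 of the 321 counts of the adipocyte gene Adipoq there, while the whole WT group had 45 and 12 counts of these genes. KI 6 also had the highest count of all 8 fibroblast markers, such as 8044 for Col1a1, with 4591 in the next library. Of the 2 atrial markers tested, Nppa was higher in KI (log2 fold change 2.18, adjusted p = 0.0341, edgeR). Nppa had 83922 counts in KI 6 and 59256 in the next library. Myl4 did not pass (3.52, adjusted p = 0.0628, edgeR). KI 6 held 10187.1 of the 10999.7 Myl4 counts in the KI group, and the next library had 173.83. The whole WT group had 833.25 counts of Myl4, so that its fold change rests largely on KI 6. None of the endothelial, macrophage or erythroid markers passed, and the skeletal muscle myosins Myh1, Myh2 and Myh4 stayed at or under 14.8 counts in any library. In RNA from heart tissue, fewer cells of a type and less RNA per cell cannot be told apart. The part of these markers in the results below was not tested.

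The large subunit joins amino acids and holds the tunnel through which the new protein leaves. Mrpl39 encodes one of its proteins that exist only in mitochondria. It had 35.7, 37.9 and 40.3 CPM (lowest, median and highest library) in KI hearts, against 42.2, 44.1 and 50.2 CPM in WT hearts. Every KI library lay below every WT library, a separation shown by 2 of the 78 members and by 4.36% of all genes tested. The log2 fold change was -0.23 (SE 0.05, adjusted p = 0.0164, edgeR), or 0.851 times the WT level. The call held with each of the 12 libraries left out in turn, with an adjusted p of at most 0.0394 (without KI 3, edgeR).

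Mrpl37, another mitochondria-specific large subunit protein, had 49.1, 51.6 and 54.2 CPM in KI hearts, against 55.2, 57.9 and 61.7 CPM in WT hearts. Its groups did not overlap either. The log2 fold change was -0.18 (SE 0.04, adjusted p = 0.0229, edgeR), and the call held in 9 of the 12 fits with a library left out; it was lost without KI 3, WT 3 or WT 5, with an adjusted p of at most 0.0534 by edgeR. Mrpl1, the relative of the bacterial protein of the mobile stalk beside the exit site for transfer RNA, had 24.7, 27.0 and 30.7 CPM in KI hearts, against 30.2, 31.1 and 33.7 CPM in WT hearts. Its KI 1 library reached into the WT range. The fold change was -0.20 on the log2 scale (SE 0.06, adjusted p = 0.0400, edgeR), and it passed in 3 of the 12 fits with a library left out, with an adjusted p of up to 0.0890 (without WT 2, edgeR). With KI 3, KI 4 and KI 5 left out, none of Mrpl39, Mrpl37 and Mrpl1 passed, at log2 fold changes of -0.26, -0.20 and -0.17 and adjusted p values of 0.0944, 0.103 and 0.276 by edgeR. None of these 3 genes overlaps another entry on its strand.

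Mrpl42, a mitochondria-specific protein, had the highest level per length of all members. It had 137, 145 and 162 CPM in KI hearts, against 154, 168 and 184 CPM in WT hearts. Its log2 fold change of -0.19 (SE 0.06) missed the threshold at an adjusted p of 0.0514 by edgeR, and its groups overlapped. At the other end of the large subunit stood Mrpl20, whose relative in bacteria helps to assemble the large subunit, with 25.5, 27.3 and 28.7 CPM in KI hearts and 20.3, 25.6 and 26.3 CPM in WT hearts. All 6 KI libraries were above the WT mean, and the log2 fold change was 0.14 (SE 0.07, adjusted p = 0.187, edgeR).

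**Figure D1:**
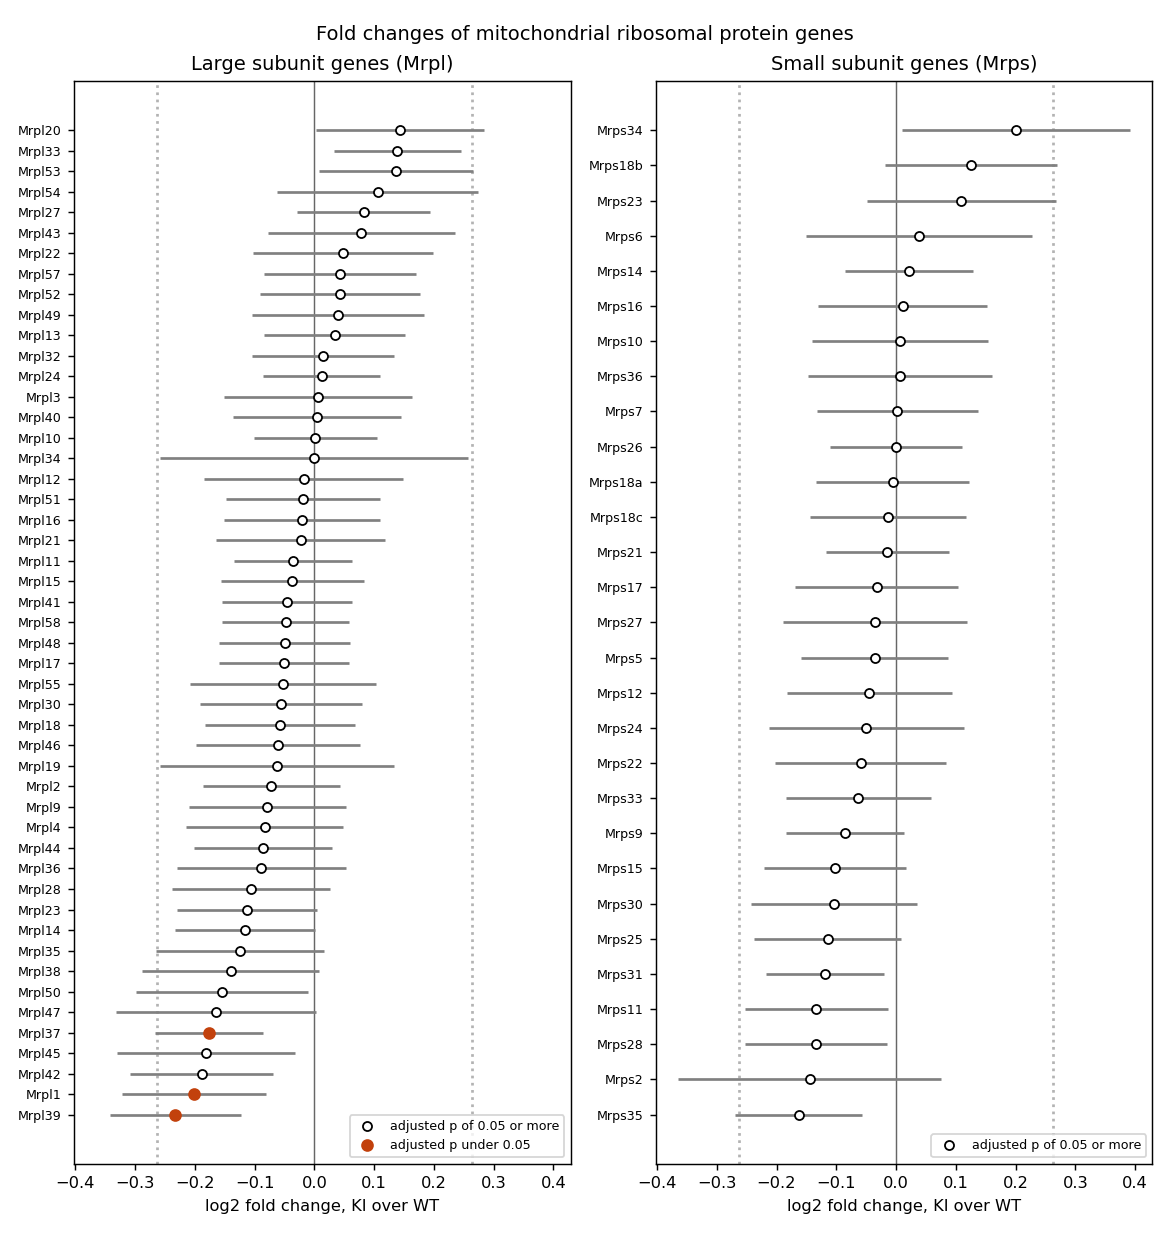
Log2 fold change (KI over WT, x axis) of each of the 49 large subunit (left) and 29 small subunit genes (right), with 95% intervals, TMM scaling; dotted lines mark 1.2-fold either way. Filled points are the genes with an adjusted p under 0.05 by edgeR, all 3 in the large subunit and below 0, and the points of both panels lie between -0.23 and 0.20.

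By role within the large subunit, the genes of the stalk that recruits translation factors did not pass: Mrpl10, its base, averaged 49.6 ± 2.34 CPM in KI and 49.6 ± 2.41 CPM in WT hearts, Mrpl11 averaged 30.4 ± 0.844 and 31.1 ± 1.72 CPM, and Mrpl12, the repeated stalk protein that also binds mitochondrial RNA polymerase, averaged 122 ± 7.86 and 123 ± 15.0 CPM. With TMM, all 3 had 95% intervals within 1.2-fold. With library totals, Mrpl10 passed as higher (0.15, adjusted p = 0.0410, edgeR). The interval of Mrpl12 then reached 0.29 on the log2 scale, past the 1.2-fold bound of 0.26. Of 7 genes around the exit tunnel, 0 passed and their median log2 fold change was -0.09; the lowest was Mrpl45, which ties the ribosome to the inner membrane, at -0.18 (SE 0.07, adjusted p = 0.114, edgeR). Of 6 genes of the central protuberance, where the subunits meet, 0 passed and the median was -0.05. Among 30 large subunit genes with a bacterial relative 1 was lower, and among 21 mitochondria-specific ones 2 were lower; these counts are too few to compare, and the difference between the classes was not tested.

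The small subunit binds messenger RNA and reads its code. Its member with the smallest p, Mrps35, had 41.2, 42.9 and 45.8 CPM in KI hearts, against 42.9, 49.1 and 50.9 CPM in WT hearts, where WT 4 lay apart at the low end. On the log2 scale the fold change was -0.16 (SE 0.05, adjusted p = 0.0560, edgeR), and without WT 4 it passed, at an adjusted p of 0.0166. Mrps31, Mrps28 and Mrps11 had log2 fold changes of -0.12, -0.13 and -0.13 and adjusted p values of 0.119, 0.146 and 0.148 by edgeR, with all 6 KI libraries below the WT mean in each case. Mrps34, which keeps the small subunit stable, had the largest positive value of all members. It had 35.33, 40.82 and 44.97 CPM in KI hearts, against 27.86, 36.08 and 40.15 CPM in WT hearts, with overlapping groups and a log2 fold change of 0.20 (SE 0.09, adjusted p = 0.171, edgeR). Mrps23, the small subunit gene with the highest level per length, averaged 122 ± 8.24 CPM in KI and 113 ± 12.1 CPM in WT hearts (0.11, SE 0.07, adjusted p = 0.374, edgeR); it shares 35 bases with Cuedc1 on the same strand, whose count was 41.9% of its own. Mrps9 and Mrps7, with the next highest CPM when length is left aside, averaged 56.6 ± 2.90 and 54.8 ± 2.66 CPM in KI, against 60.1 ± 2.19 and 54.7 ± 5.17 CPM in WT.

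**Figure D2:**
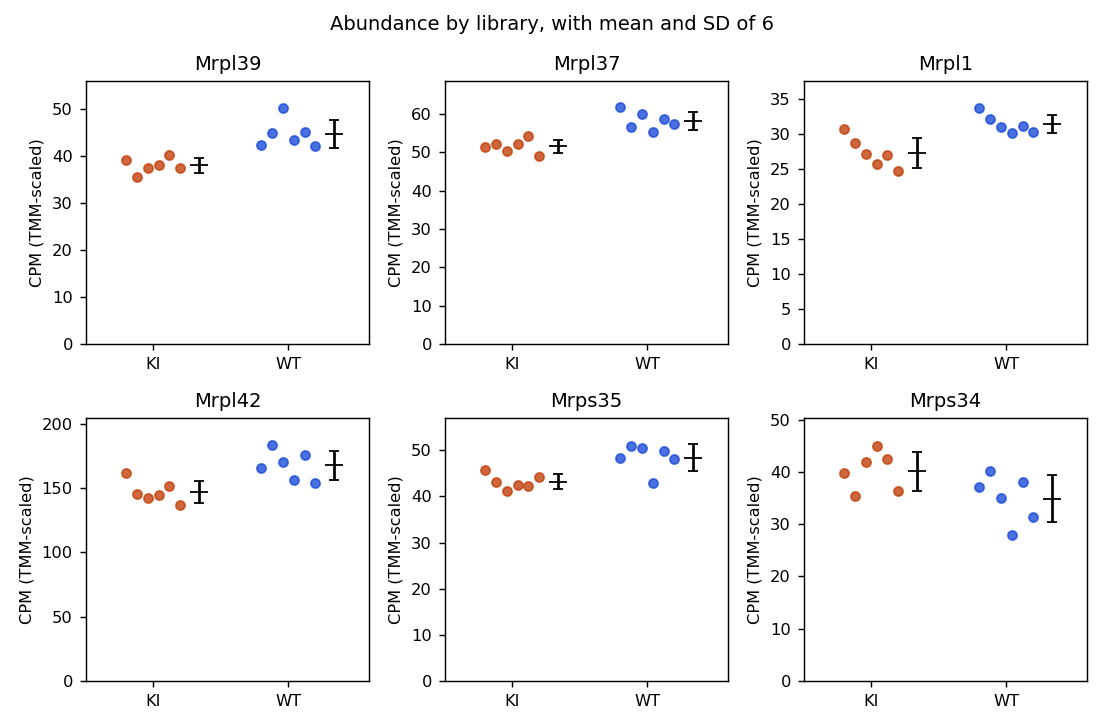
CPM (TMM-scaled, y axis) of 6 members in each KI (left) and WT (right) library; points are libraries and black marks the mean and SD of 6. Mrpl39 and Mrpl37 separate without overlap, 1 KI library of Mrpl1 reaches the WT range, and the groups of Mrpl42, Mrps35 and Mrps34 overlap.

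The letter in the symbol does not always give the subunit. The proteins of Mrps30 and Mrps18a sit in the large subunit, and that of Mrps36 belongs to the 2-oxoglutarate dehydrogenase complex of the citric acid cycle. Their log2 fold changes were -0.10, -0.01 and 0.01, with adjusted p values of 0.336, 0.965 and 0.968 by edgeR. With these proteins placed where they sit, 3 of 51 large subunit genes and 0 of 26 small subunit genes were lower. Of the genes that human disease ties to cardiomyopathy, Mrpl3 averaged 75.4 ± 9.18 CPM in KI and 75.1 ± 3.19 CPM in WT hearts, Mrpl44 36.4 ± 1.71 and 38.6 ± 2.64 CPM, and Mrps22 15.3 ± 0.890 and 16.0 ± 1.42 CPM. None of these 3 passed, with 95% intervals within 1.2-fold under TMM. With library totals, the interval of Mrpl3 reached 0.32 on the log2 scale, past that bound.

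How small the differences were can be read from the intervals. The 95% interval of the fold change lay within 1.2-fold either way for 37 of 49 large subunit genes (75.5%) and for 24 of 29 small subunit genes (82.8%), compared with 30.9% of all genes tested. Scaled by library total, it did so for 30 large (61.2%) and 16 small subunit genes (55.2%), compared with 21.0% of all genes. With TMM, the median size of the log2 fold change, whatever its sign, was 0.058 over the members and 0.133 over all genes. The members also varied less within groups: the median SD of log2 CPM was 0.103 in the large and 0.107 in the small subunit, compared with 0.175 over all genes. Mrpl37 varied least (0.053) and Mrpl34 most (0.233). The members were not matched to other genes by level for these comparisons.

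The sign of the small differences followed the scaling. Under TMM, 26 of the 78 log2 fold changes were positive and 52 negative, with medians of -0.05 in the large and -0.04 in the small subunit, compared with 0.01 over all genes. Scaled by the library total alone, which counts the mitochondrial chromosome's reads in full, 70 of 78 were positive, with medians of 0.10 and 0.12. That scaling moved the median of all genes up by 0.15, to 0.16, so that relative to all genes the members again lay slightly below. With library totals, 10 large and 4 small subunit genes passed as higher, 0 passed as lower, and 19.0% of all genes were higher and 1.22% lower. The 3 genes called lower under TMM then had log2 fold changes of -0.08, -0.03 and -0.06, with adjusted p values of 0.253, 0.710 and 0.512 by edgeR.

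A scaling added after the data were seen sets the members' own summed count equal in all libraries, so that each fold change is read relative to the family. Under it Mrpl53 (0.18, adjusted p = 0.0236), Mrpl20 (0.19, adjusted p = 0.0375) and Mrps34 (0.25, adjusted p = 0.0380) were higher in KI by edgeR, and 0 members passed as lower; Mrpl39 stood at -0.19 with an adjusted p of 0.0554. Over all genes, 4.18% were higher and 1.71% lower, beside 2 of 49 large and 1 of 29 small subunit genes higher. Mrpl53, Mrpl20 and Mrps34 were also among the 14 members called higher with library totals. That is no separate support, because both scalings use the same counts. Mrpl53 was singled out after its values were seen; it had 34.4, 37.1 and 40.0 CPM in KI hearts and 29.7, 34.8 and 36.9 CPM in WT hearts. When the total was taken without the genes of the mitochondrial chromosome, also an added setting, Mrpl39 (-0.19, adjusted p = 0.0283) and Mrpl37 (-0.14, adjusted p = 0.0466) passed as lower by edgeR.

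**Figure D3:**
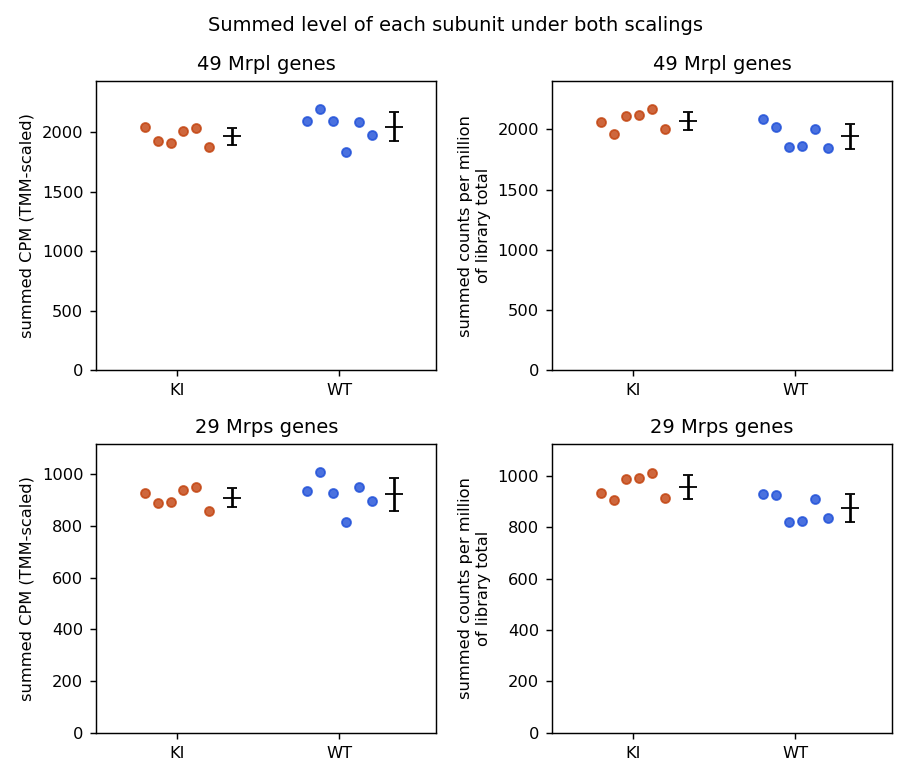
Summed level of the 49 Mrpl genes (top) and 29 Mrps genes (bottom) in each KI (left in each panel) and WT library, as TMM-scaled CPM (left panels) and as counts per 1000000 of the library total (right panels), with mean and SD of 6. KI means are 1967 and 909 CPM and WT means 2047 and 921 CPM on the left, and 2070 and 957 in KI against 1942 and 874 in WT per 1000000 of the total on the right.

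Summed over each subunit, the large subunit genes came to 1967 ± 71.8 CPM in KI hearts (1879 to 2045) and 2047 ± 124 CPM in WT hearts (1837 to 2192), and WT 4 was the lowest WT library. The small subunit genes summed to 909 ± 36.0 CPM in KI and 921 ± 63.5 CPM in WT. Per 1000000 of the library total, the large subunit sum was 2070 ± 77.8 in KI and 1942 ± 105 in WT, and the small subunit sum 957 ± 45.7 in KI and 874 ± 53.0 in WT. The order of the groups thus differed between scalings. The groups overlapped in every one of these sums.

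A ratio within a library does not depend on the scaling. The large subunit sum over the small subunit sum was 2.16 ± 0.0298 in KI libraries (2.14 to 2.21) and 2.22 ± 0.0340 in WT libraries (2.18 to 2.26). The groups overlapped. KI 3, KI 4 and KI 5 had the 3 lowest ratios, all 2.14.

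The ribosomal RNAs moved far more than the protein genes. The 16S RNA gene mt-Rnr2 had 2468, 3094 and 3818 CPM in KI hearts, against 4701, 5723 and 6598 CPM in WT hearts. The 12S RNA gene mt-Rnr1 had 813, 937 and 1064 CPM in KI hearts, against 1217, 1553 and 2185 CPM in WT hearts. Neither overlapped between groups. The log2 fold changes were -0.85 (SE 0.11, adjusted p = 0.00159, edgeR) and -0.80 (SE 0.13, adjusted p = 0.00500, edgeR), and by library total they were -0.70 and -0.65 and still passed. The libraries were made from messenger RNA, so these values count the ribosomal RNA that came through that selection and not its full amount.

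Set against the summed protein genes, the ribosomal RNA counts were 1.44 ± 0.211 times as many in KI libraries (1.12 to 1.74) and 2.47 ± 0.248 times as many in WT libraries (2.23 to 2.89). The groups did not overlap, and the ratio does not depend on the scaling. The 13 protein genes of the mitochondrial chromosome had a median log2 fold change of -0.35, with 9 lower, and all 13 were negative under both scalings. With KI 3, KI 4 and KI 5 left out, mt-Rnr2 still passed, at -0.70 and an adjusted p of 0.0347, and mt-Rnr1 did not, at -0.76 and an adjusted p of 0.0772, both by edgeR.

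**Figure D4:**
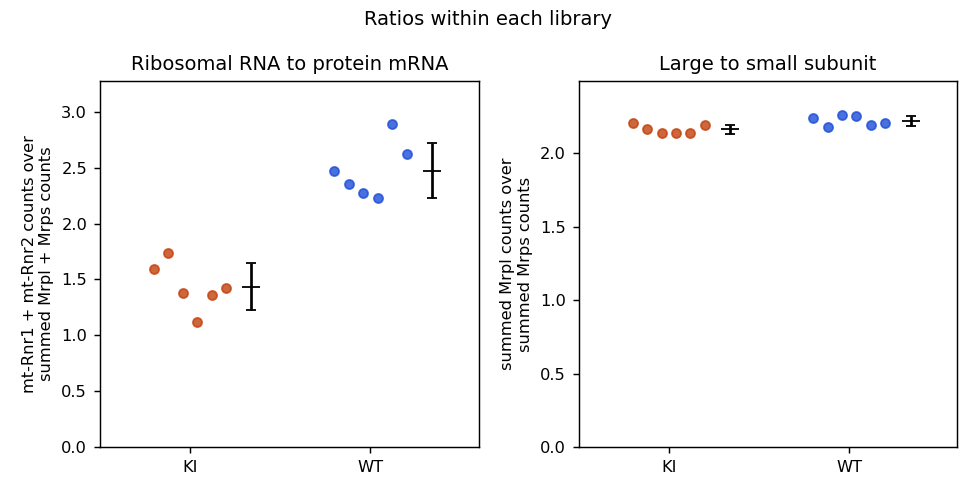
Ratios of counts within each library, KI left and WT right in each panel, with mean and SD of 6. The ratio of mt-Rnr1 and mt-Rnr2 to the 78 protein genes (left panel) lies at 1.12 to 1.74 in KI and 2.23 to 2.89 in WT, and the ratio of large to small subunit genes (right panel) at 2.14 to 2.21 in KI and 2.18 to 2.26 in WT.

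Ribosomal proteins with symbols of another kind gave 0 of 5 calls by edgeR with TMM. Chchd1, a small subunit protein, had the largest positive value, with 31.6 ± 2.80 CPM in KI and 26.7 ± 2.48 CPM in WT hearts (log2 fold change 0.24, SE 0.07, adjusted p = 0.0598, edgeR). Ptcd3, which binds RNA in the small subunit, stood at -0.19 and Dap3, a small subunit protein that binds GTP, at -0.12, with adjusted p values of 0.0727 and 0.103 by edgeR. Aurkaip1 (-0.03) and Gadd45gip1 (0.01) were near 0.

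Genes of the machinery around the ribosome had median absolute log2 fold changes of 0.122 for assembly, 0.127 for translation factors and 0.121 for transfer RNA charging, above the 0.058 of the members and below the 0.133 of all genes. Of 27 genes that assemble the mitochondrial ribosome, 2 (7.41%) were lower, near the 4.34% of all genes: Fastkd2, an RNA-binding protein needed for the large subunit (-0.22, SE 0.05, adjusted p = 0.0258, edgeR), and Rpusd4, a pseudouridine synthase that modifies the 16S RNA (-0.21, SE 0.05, adjusted p = 0.0301, edgeR). Of the 27 assembly genes, 24 were negative and 10 (37%) had an unadjusted p under 0.05. With library totals, 19 of the 27 were positive. None of the 16 translation factors passed by edgeR, 14 were negative, and 7 (43.8%) had an unadjusted p under 0.05, compared with 25.8% of all genes. With library totals, 12 of the 16 were positive. The recycling factor gene Mrrf (-0.18) and Lrpprc, which stabilises mitochondrial messenger RNA (-0.19), had adjusted p values of 0.0664 and 0.0864 by edgeR. Of 20 genes that charge mitochondrial transfer RNAs, 19 were negative and 10 (50%) had an unadjusted p under 0.05. With library totals, 12 of the 20 were positive. With TMM, 5 of the 20 were called lower, 25.0% beside the 4.34% of all genes. These were Mars2 (-0.32), Ears2 (-0.23) and Cars2 (-0.21), which load methionine, glutamate and cysteine, and Gatb (-0.19) and Qrsl1 (-0.24), subunits of the enzyme that converts glutamate to glutamine on its transfer RNA. The value farthest from 0 in this list, -0.91 for the leucine enzyme gene Lars2 (SE 0.33, chosen after its value was seen), did not pass, at an adjusted p of 0.0936 by edgeR. Mars2 averaged 9.13 ± 0.876 CPM in KI and 11.4 ± 0.693 CPM in WT hearts.

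Among 11 genes that copy or transcribe mitochondrial DNA, 1 was lower, Twnk, the helicase at the replication fork, with 22.7 ± 2.02 CPM in KI and 29.1 ± 3.10 CPM in WT hearts (-0.36, SE 0.08, adjusted p = 0.0154, edgeR). Among 11 nuclear regulators of mitochondrial genes, likewise 1 was lower (9.09%, compared with 4.34% of all genes), Esrra, an estrogen-related receptor, with 101 ± 4.50 CPM in KI and 114 ± 7.68 CPM in WT hearts (-0.18, adjusted p = 0.0468, edgeR), and Gabpa, the DNA-binding part of the ETS factor GABP, stood at -0.18 with an adjusted p of 0.0557. The farthest from 0 in that list was positive, the growth regulator gene Myc at 0.66 (SE 0.24, adjusted p = 0.0952, edgeR; chosen after its value was seen). By library total, 0 genes of these lists of nuclear genes passed as lower. With KI 3, KI 4 and KI 5 left out, none of the 9 genes called lower in these lists passed, with adjusted p values from 0.0889 (Cars2) to 0.221 (Fastkd2) by edgeR; that fit has 3 in place of 6 KI libraries, and their log2 fold changes ran from -0.28 to -0.18 in it, compared with -0.36 to -0.18 with all libraries. The cytosolic ribosomal proteins, with 11 of 78 tested genes higher, 1 lower and a median of 0.11, are given for comparison; their difference from the mitochondrial ones was not tested.

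Levels differed between members far more than between groups. Per kilobase of principal transcript, Mrpl42 was highest in the large subunit, at 221 CPM per kb in KI and 252 CPM per kb in WT hearts. Mrpl12 and Mrpl30, next in order, were at 92.7 and 90.1 in KI and at 93.8 and 93.6 in WT, a difference within their spread. At the low end, Mrpl17 had 3.93 CPM per kb in KI and 4.07 in WT, and Mrpl47 3.71 in KI and 4.15 in WT. In WT the highest was 61.9 times the lowest in the large subunit and 20.02 times in the small subunit, where Mrps23 led at 91.3 in KI and 84.6 in WT and Mrps25 was last at 3.90 in KI and 4.23 in WT. Counts cover introns and share reads between entries, so these levels are approximate. Counts are over RefSeq gene spans, whereas lengths are of GENCODE transcripts, which can exceed the span. For Mrps26 the transcript length was 4278 bases and the span 1638 bases. Mrpl17 was lowest in WT with a transcript length of 7300 bases, at an average of 29.7 CPM. The order and the ratios above therefore depend on the transcript chosen. Besides Mrps23, same-strand neighbours with over 10% of a member's count were found for Mrpl33 (the long noncoding RNA Gm38424, 108%) and Mrps6 (Slc5a3, 14.6%).

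**Figure D5:**
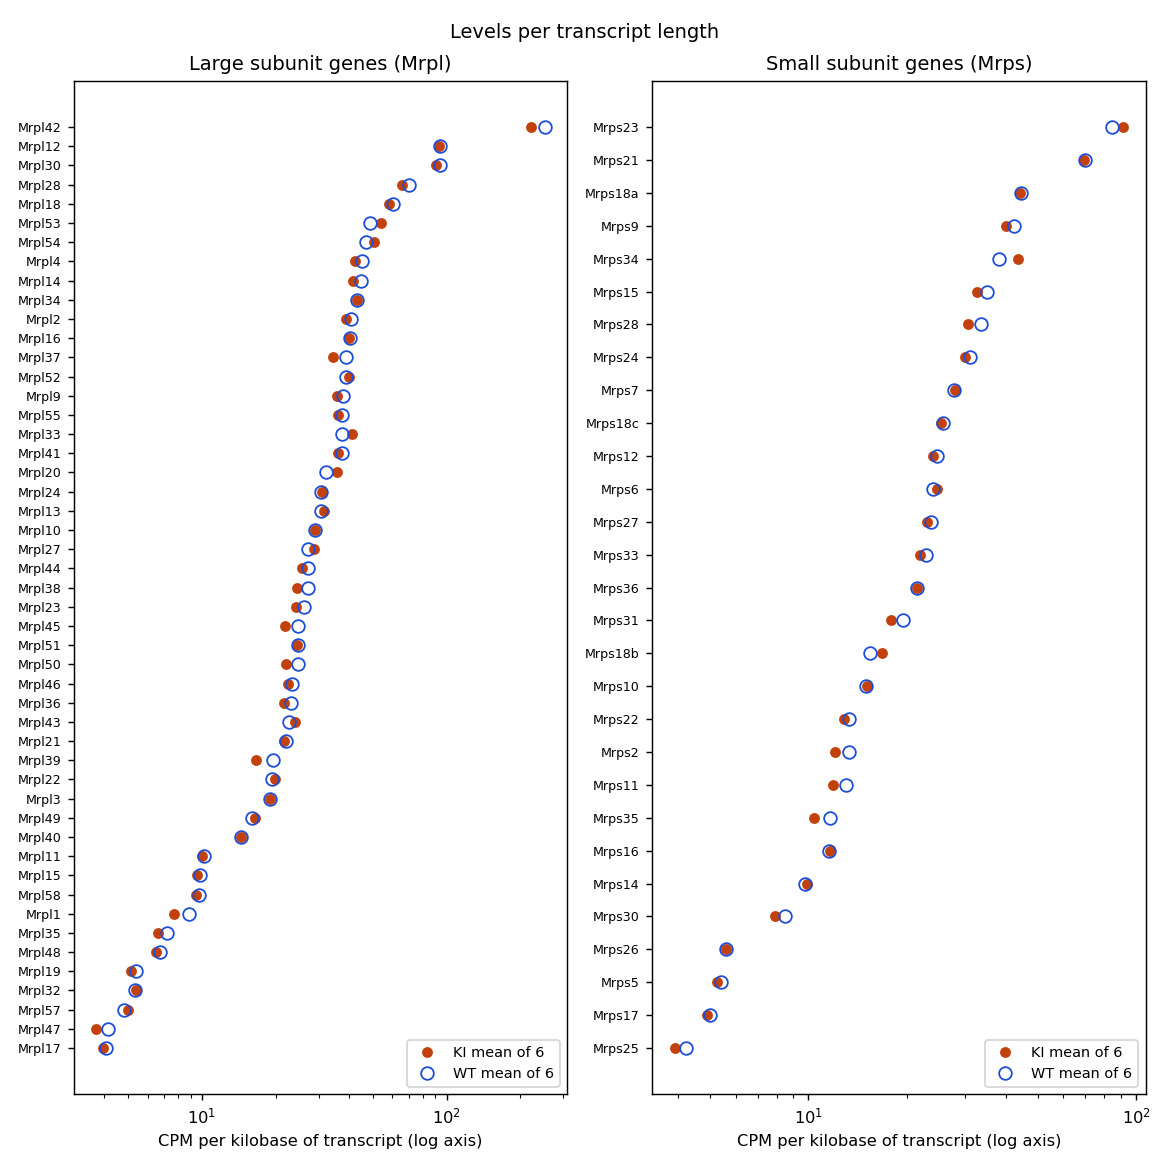
Mean CPM per kilobase of transcript (log axis) of each member, ordered by the WT level, with KI as filled and WT as open circles, large subunit left and small subunit right. The circles of a gene nearly coincide, while levels run from 3.71 to 221 in KI and from 4.07 to 252 in WT.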

How the data were processed

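RNA was sequenced from 12 heart libraries with a stranded messenger RNA kit, per the labels' protocols. Reads were trimmed with cutadapt 2.5, aligned with STAR 2.7.2b and counted with featureCounts 1.6.4, per the submitters' processing notes. The authors deposited expected counts per gene, not normalized: per the file headers, reverse-strand reads over the whole gene span of a RefSeq annotation of GRCm38.p6, with multi-mapped and overlapping reads split as fractions, so that 65 of the 78 genes have fractional counts.

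Counts were rounded to whole numbers. edgeR 4.0.16 (R 4.3.3) filtered them with filterByExpr (minimum count 10, total 15), scaled by TMM and compared KI with WT by its quasi-likelihood test without covariates, with Benjamini-Hochberg adjustment over all 15602 genes. The threshold was an adjusted p of 0.05. Intervals are 95%. DESeq2 1.42.0 and voom (limma 3.58.1) were among 25 alternatives, with other scalings and filters, libraries left out and a replicate block. The fit was tested on simulated data. Figures used matplotlib 3.10.9. Levels per kilobase use the principal transcript of GENCODE M21.

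The members, gene lists and tests were chosen with earlier results of these data known. Genes named are those past the threshold, those with the smallest p of each subunit, the 3 most abundant of each subunit, the largest change in each direction, fixed role and disease genes, and up to 3 genes of each list, or all called ones; others are marked. Each title carries a number of its own, but what the numbers stand for is not stated, and neither are litters and batches. The p-values compare the groups against the spread between these libraries, each taken as a separate unit. Replicate numbers do not pair the groups.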

Additional observations from a re-analysis of the deposited data

Results flagged for a closer look

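Both results listed here concern WT 4 and one gene each: its value lay far from those of the other WT libraries. Mrpl10 had 44.7 CPM in WT 4 and 50.4 to 51.1 CPM in the other WT libraries, while the KI libraries ran from 47.0 to 53.4 CPM. Mrps35 had 42.9 CPM in WT 4 and 48.1 to 50.9 CPM in the other WT libraries, while the KI libraries ran from 41.2 to 45.8 CPM. Of 104 groups of values examined, 2 stood out in this way, and chance does this in about 1 of 20 groups. Without WT 4, 5 large subunit genes (Mrpl37, Mrpl39, Mrpl42, Mrpl1 and Mrpl38) and 1 small subunit gene (Mrps35, adjusted p = 0.0166, edgeR) were lower in KI hearts. The cause was not tested.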

How the results depend on the processing

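Over the 23 members and 25 other genes named by the rule above, 25 alternatives gave 1198 fits of single genes. Of these, 966 kept their direction and side of the threshold, 120 lost a call, 39 gained one and 73 changed sign without a call. Called results reversed in 0 fits. Most of the named genes were not called in the main fit and so had no call to lose. Mrpl39 was called in 20 of the 25 alternatives, Mrpl37 in 16 and Mrpl1 in 10. Library totals gave 2957 genes higher and 191 lower, 10 large subunit genes higher and 0 lower, 4 small subunit genes higher, medians of 0.10 and 0.12, and log2 ratios of the summed levels of 0.0917 and 0.1305. Without a filter 1 large subunit gene was lower. DESeq2 called 1067 genes lower and 1 small subunit gene lower; voom called 1265 genes lower, 1 large subunit gene higher and 1 small subunit gene lower. The replicate block left 220 genes higher and 212 lower and 0 large subunit genes lower; numbers were not paired (correlations of same-numbered libraries -0.278 to 0.0354, 0 of 6 best matched by their own number). Leaving out KI 3, KI 4 and KI 5 left 68 higher and 22 lower, with 0 large subunit genes lower; these 3 alone gave 1195 lower, with 1 large subunit gene higher (Mrpl33) and 1 lower (Mrpl1). The members' own sum gave 267 lower, 2 large and 1 small subunit genes higher and 0 large lower. With single libraries left out, 390 to 714 genes were higher and 338 to 833 lower, 1 to 5 large and 0 to 1 small subunit genes lower, with medians of -0.07 to -0.03 and -0.07 to -0.01. The lowest large subunit count, 1, came without KI 3, WT 3 or WT 5, and the highest, 5, without WT 4. The summed levels then ranged from -0.09 to -0.04 and from -0.05 to 0.01 (log2). The causes were not tested, apart from fewer libraries or genes by construction. The expected counts share reads between entries, which limits Mrpl33, Mrps23 and Mrps6 most.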
